A study of Mus musculus with 5 samples.

Results

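The genes described here belong to the circadian clock and its direct output. They were chosen by name, as the probe sets that the platform annotation assigns to a single symbol among 10 sought (Per1, Per2, Per3, Nr1d1, Nr1d2, Bhlhe41, Dbp, Tef, Arntl and Npas2), and 9 of these had a probe set among the 10361 of the table. Arntl was not analysed here. By role, 6 belonged to the negative limb of the clock (Per1, Per2, Per3, Nr1d1, Nr1d2 and Bhlhe41), 2 were output factors (Dbp and Tef) and 1 belonged to the positive limb (Npas2).

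The samples came from 2-day-old mouse pups (postnatal day 2, C57Bl6N background) born to heterozygous Ebf2 parents, whose sciatic nerves were pooled by genotype. There were 2 pools of Ebf2-/- nerves (KO pools 2 and 4) and 3 pools of Ebf2+/+ nerves (WT pools 1, 9 and 11), with 12 nerves in each pool and 1 Affymetrix whole-transcript array per pool. The labels do not give the time of day of excision, the litters or number of animals in a pool, or what was removed from the Ebf2 gene. A pool mixes the RNA of all cell types of a nerve, so a larger share of cells expressing a gene and more RNA per cell cannot be told apart.

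The mammalian clock is a feedback loop of transcription that runs in most cells of the body. A positive limb, made of ARNTL (also called BMAL1) with CLOCK or its relative NPAS2, binds E-box motifs and switches on the Per, Cry and Nr1d genes and Bhlhe41, whose products then repress it. In many adult tissues the RNAs of Arntl and Npas2 therefore peak at about the opposite time of day to those of the Nr1d genes, so the level of a gene of either limb in a sample depends on the phase at which it was taken.

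All levels below are deposited RMA values on the log2 scale, so a difference of 1 is a doubling of signal, and each difference is the KO mean minus the WT mean with its moderated standard error (SE). Adjusted p-values are from limma over all 10361 probe sets. Ebf2 itself was at 9.25 and 8.74 in KO pools 2 and 4, against 11.55, 11.14 and 11.40 in WT pools 1, 9 and 11, which placed every array on the side of its label. The array median was 9.11 in KO pool 2 and 8.93, the lowest, in KO pool 4, against 9.11, 9.09 and 9.04 in WT pools 1, 9 and 11. The 12 measured keratinocyte markers averaged 7.37 and 7.65 in KO pools 2 and 4, against 7.35, 9.26 and 8.58 in WT pools 1, 9 and 11, and the 14 skeletal muscle markers averaged 10.65 and 10.87, against 10.18, 11.75 and 11.53. WT pools 9 and 11 thus carried more skin and muscle RNA than the other pools. The 5 measured Schwann cell markers, Sox10 and Mbp among them, averaged 11.90 and 11.52 in KO pools 2 and 4, against 11.98, 11.99 and 12.02 in WT pools 1, 9 and 11.

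The genotypes did not differ by a passing test at any clock gene, while the pools within a genotype differed by up to 1.39 on the log2 scale. Adjusted p below 0.05 was reached by 0 of 9 clock genes, against 0.676% of all probe sets. At unadjusted p below 0.05 there were 4 of 9 (Nr1d1, Nr1d2, Bhlhe41 and Per1), against 14.3% of all probe sets in either direction. All 4 had the higher mean in KO, against 7.14% of all probe sets. These p-values are moderated, which lowers the SE of genes with a wide spread between pools. The gap between the KO pools exceeded the difference in Nr1d1 (1.28 against 0.81), Per1 (1.19 against 0.54) and Bhlhe41 (0.69 against 0.54). In Nr1d2 it did not (0.37 against 0.61). With no moderation of the variance 0 of 9 passed adjusted p below 0.05, and with a trended, robust prior 1 of 9 did, Nr1d2 (adjusted p = 0.0147), where 5.54% of all probe sets passed. The median difference of the 9 genes was 0.38, beside -0.002 for all probe sets, and 7 had the higher mean in KO. Endothelial markers had a shift of similar size between the genotypes, with 8 of 8 means higher in KO, a median difference of 0.43 and 0 passing, and averaged 11.02 and 10.78 in KO pools 2 and 4, against 10.80, 10.38 and 10.37 in WT pools 1, 9 and 11. The 3 measured fibroblast markers were all higher in KO, with a median difference of 0.23 and 0 passing, and the part of either shift in the clock values was not tested.

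**Figure D1:**
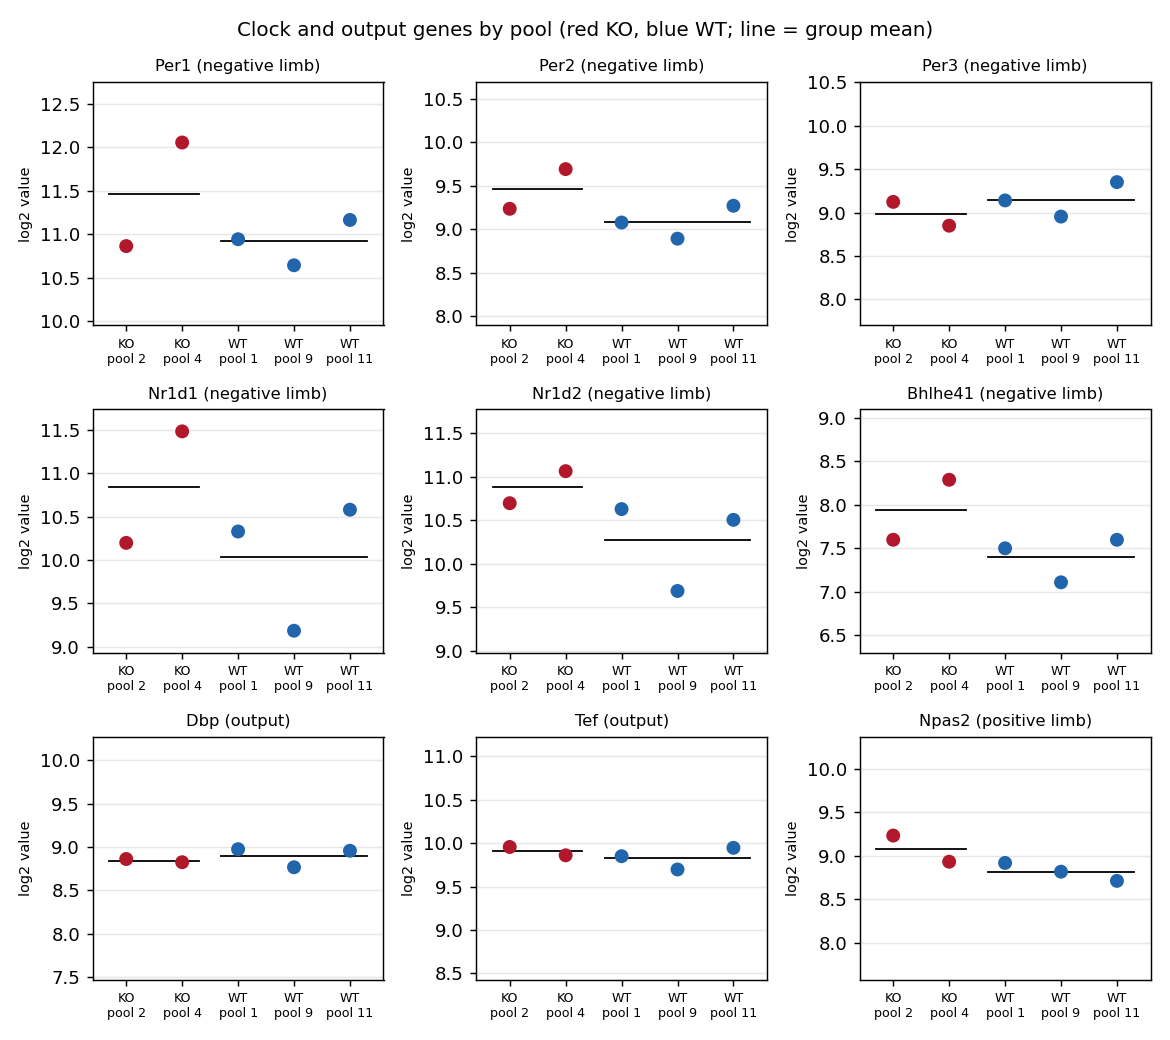
Log2 value of each clock gene (vertical axis, same span of 2.8 in every panel) in each pool (horizontal axis), KO pools in red and WT pools in blue, with a line at each group's mean. KO pool 4 is the highest and WT pool 9 the lowest pool for Per1, Per2, Nr1d1, Nr1d2 and Bhlhe41, while Dbp and Tef are nearly flat.

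Nr1d1 encodes REV-ERB alpha, a nuclear receptor that represses Arntl and links the clock to metabolism. It was at 10.20 and 11.48 in KO pools 2 and 4, against 10.33, 9.19 and 10.58 in WT pools 1, 9 and 11. KO pool 4 was the highest and WT pool 9 the lowest, and KO pool 2 lay inside the WT range, below WT pools 1 and 11. Its difference was 0.81 (SE 0.32, adjusted p = 0.250), a 1.75-fold higher mean in KO. The gap of 1.28 between the KO pools and the gap of 1.39 between WT pools 11 and 9 were both larger than that difference. Its range over the 5 pools, 2.30, was the largest among the clock genes and stood at the 99.6th percentile of all probe sets.

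Nr1d2 encodes REV-ERB beta, the partner receptor that acts on the same elements. It was at 10.70 and 11.07 in KO pools 2 and 4, against 10.63, 9.69 and 10.50 in WT pools 1, 9 and 11. Both KO pools were above all WT pools, by 0.07 between KO pool 2 and WT pool 1, and WT pool 9 lay well below the rest. The difference was 0.61 (SE 0.23, adjusted p = 0.212), and the WT range of 0.94 exceeded it. Against WT pool 1 alone it was 0.25.

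Bhlhe41 encodes DEC2, a basic helix-loop-helix repressor that competes at E-boxes and is known in humans and mice for its effect on sleep length. Its level was 7.60 and 8.29 in KO pools 2 and 4, against 7.50, 7.11 and 7.60 in WT pools 1, 9 and 11. KO pool 2 had the same value as WT pool 11 to the last deposited digit (27.0% of all probe sets had equal values in some pools). Only KO pool 4 thus stood above the WT range. The difference was 0.54 (SE 0.21, adjusted p = 0.223), or 0.20 without KO pool 4 and 0.89 without KO pool 2. Its mean level lay at the 24th percentile of the table.

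Per1 and Per2 encode PERIOD proteins, which with the cryptochromes inhibit the positive limb, and Per1 is also switched on directly by glucocorticoids and by CREB signalling. Per1 was at 10.86 and 12.06 in KO pools 2 and 4, against 10.94, 10.64 and 11.16 in WT pools 1, 9 and 11. KO pool 4 was 1.19 above KO pool 2, a gap at the 99.2nd percentile of all probe sets, while KO pool 2 lay within the WT range. The Per1 difference was 0.54 (SE 0.25, adjusted p = 0.319) and turned to -0.05 without KO pool 4. Per2 had the same highest and lowest pools at a smaller scale, with 9.24 and 9.69 in KO pools 2 and 4, against 9.08, 8.89 and 9.27 in WT pools 1, 9 and 11. KO pool 2 was again inside the WT range, and the difference was 0.38 (SE 0.18, adjusted p = 0.349).

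Per3, a period gene that is dispensable for the core rhythm in mice, did not have these pools at its ends. It was at 9.12 and 8.85 in KO pools 2 and 4, against 9.14, 8.96 and 9.35 in WT pools 1, 9 and 11. KO pool 4, the highest pool for Per1 and Per2, was the lowest for Per3, and the difference was -0.16 (SE 0.18, adjusted p = 0.675). After quantile normalisation WT pool 9 was the lowest pool for Per3 as well, and KO pool 4 was 0.09 below KO pool 2.

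The output factors were nearly level. Dbp and Tef encode related PAR bZIP activators that carry the rhythm to D-box genes, and Dbp RNA is among the strongest cycling transcripts of adult mouse liver. Dbp was at 8.86 and 8.82 in KO pools 2 and 4, against 8.97, 8.77 and 8.96 in WT pools 1, 9 and 11. Both KO pools lay inside the WT range, and the range over all pools, 0.21, was at the 1.97th percentile of the table. Every probe set of the table had its fourth-ranked value at least 0.175 above its lowest, so genes with less spread are not in that ranking. The Dbp difference was -0.06 (SE 0.17, adjusted p = 0.869), at 0.003 after median centring and after quantile normalisation. Tef was at 9.96 and 9.86 in KO pools 2 and 4, against 9.85, 9.70 and 9.95 in WT pools 1, 9 and 11. The groups overlapped, with a difference of 0.08 (SE 0.17, adjusted p = 0.824) and a range of 0.26.

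Npas2, the one gene of the positive limb with a probe set, had other pools at its ends than the negative limb. It was at 9.23 and 8.93 in KO pools 2 and 4, against 8.92, 8.82 and 8.71 in WT pools 1, 9 and 11. Both KO pools were above all WT pools, by 0.01 between KO pool 4 and WT pool 1, with KO pool 2 the highest and WT pool 11 the lowest. The difference was 0.27 (SE 0.17, adjusted p = 0.493), or 0.42 without KO pool 4 and 0.12 without KO pool 2. Within the genotypes Npas2 was lower in KO pool 4 than in KO pool 2 (-0.30) and lower in WT pool 11 than in WT pool 9 (-0.11), 2 pairs in which the mean of the negative limb was higher. After quantile normalisation these 2 Npas2 gaps were smaller, at -0.11 and -0.06. Npas2 and the negative limb were both higher in WT pool 1 than in WT pool 9. Both KO pools stood above all WT pools in 2 of 9 clock genes, Nr1d2 and Npas2, against 17.5% of all probe sets, and both below in 0 of 9, against 13.3%.

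The same 2 pools stood at the ends for most of the negative limb. KO pool 4 was the highest and WT pool 9 the lowest of the 5 pools in 5 of 9 clock genes (Per1, Per2, Nr1d1, Nr1d2 and Bhlhe41), against 12.6% of all probe sets. This pattern was noticed in the values, so the counts describe it and do not test it. WT pool 9 was the lowest in 7 of 9, which added Dbp and Tef, against 22.8% of all probe sets. The gap between the KO pools exceeded the difference between the genotypes in 7 of 9 clock genes, against 56% of all probe sets. After quantile normalisation the same count of 5 of 9 stood at both ends, against 15.8% of all probe sets, and the gap between the KO pools was 1.31 for Nr1d1 and 1.20 for Per1. The 2 KO pools differed from WT by unequal amounts. KO pool 2 minus the WT mean had a median of 0.16 over the 9 genes, and KO pool 4 minus the WT mean a median of 0.61, beside 0.02 and 0.03 over all probe sets.

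**Figure D2:**
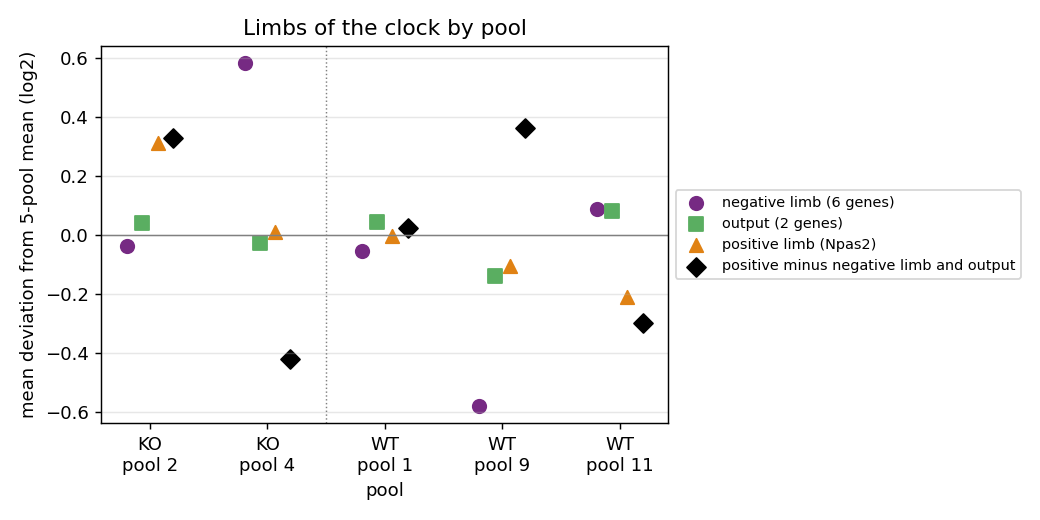
Mean deviation from the 5-pool mean on the log2 scale (vertical axis) in each pool (horizontal axis) for the negative limb, the output genes, Npas2, and Npas2 minus the mean of the other 8 genes. The negative limb reaches 0.58 in KO pool 4 and -0.58 in WT pool 9, with KO pool 2 at -0.04 between WT pools 1 and 11.

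Averaged as deviations from each gene's 5-pool mean, the 6 genes of the negative limb were at -0.04 and 0.58 in KO pools 2 and 4, against -0.05, -0.58 and 0.09 in WT pools 1, 9 and 11. KO pool 2 thus fell between WT pools 1 and 11, and only KO pool 4 lay outside the WT pools. The 2 output genes were at 0.04 and -0.03 in KO pools 2 and 4, against 0.04, -0.14 and 0.08 in WT pools 1, 9 and 11. Npas2 minus the mean of the other 8 genes was 0.33 and -0.42 in KO pools 2 and 4, against 0.03, 0.36 and -0.30 in WT pools 1, 9 and 11. This contrast spread over almost the same span within KO as within WT, and the KO mean was -0.05 ± 0.53 (SD, n = 2) against a WT mean of 0.03 ± 0.33 (SD, n = 3). The genotype difference of the contrast, -0.08, was smaller than either SD and took the other sign when KO pool 4 (0.30) or WT pool 9 (0.09) was left out. The contrast rests on Npas2 alone on its positive side. A wider contrast added genes to both sides and did not follow role throughout. Cry1, whose RNA peaks late and near that of Npas2 in mouse tissues, was placed on the side of Npas2, apart from Cry2. Nfil3 and Cry1 were added to Npas2, and Ciart, Cry2, Usp2 and Wee1 to the other side. The widened contrast was 0.11 and -0.34 in KO pools 2 and 4, against -0.04, 0.41 and -0.14 in WT pools 1, 9 and 11. It had the same pools at its ends. Its positive side alone was at 0.07 and 0.17 in KO pools 2 and 4, against -0.14, -0.03 and -0.08 in WT pools 1, 9 and 11. On that side both KO pools were above all WT pools, and KO pool 4, the highest for the negative limb, was the highest here too.

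**Figure D3:**
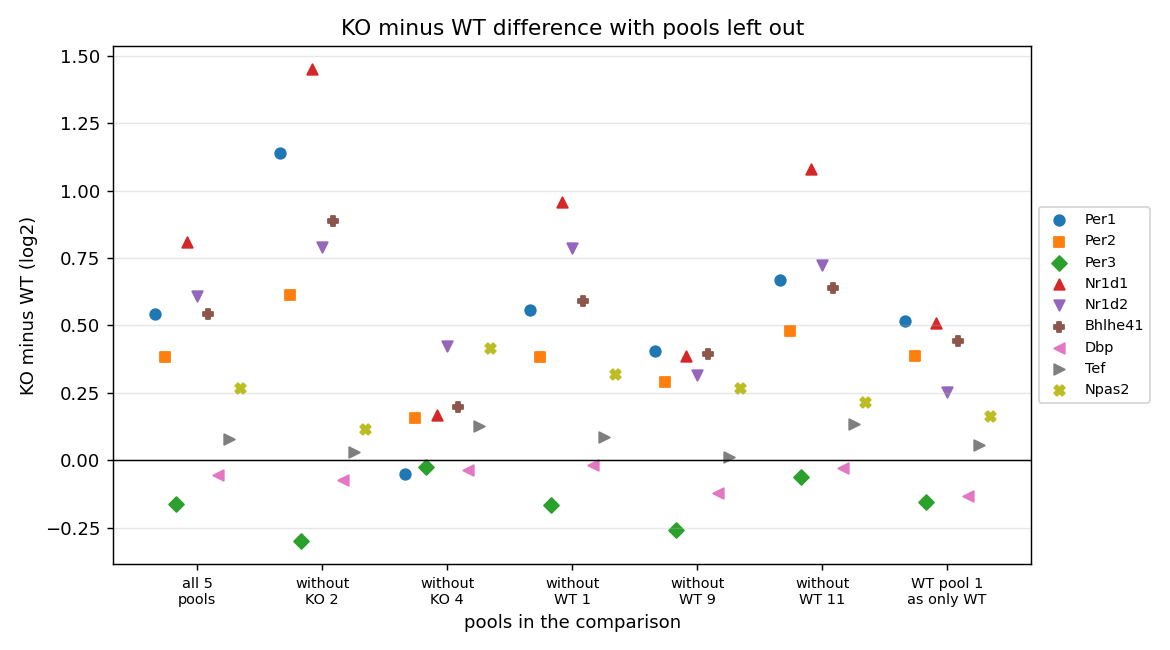
KO minus WT difference on the log2 scale (vertical axis) of each clock gene with all 5 pools, with each pool left out, and with WT pool 1 as the only WT pool (horizontal axis). Without KO pool 4, Per1 is at -0.05 and Nr1d1 at 0.17, and without WT pool 9 Nr1d1 is at 0.39.

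Single pools decided the size of these differences. With KO pool 4 left out, the Nr1d1 difference was 0.17 and that of Per2 0.16, and the median over the 9 genes was 0.16. With KO pool 2 left out, they were 1.45 for Nr1d1, 1.14 for Per1, 0.61 for Per2 and 0.79 for Nr1d2, with a median of 0.61. With WT pool 9 left out, the Nr1d1 difference was 0.39 and that of Nr1d2 0.31. Without WT pool 11 the Nr1d1 difference was 1.08 and passed (adjusted p = 0.00512), among 1.01% of all probe sets. That difference was smaller than the gap of 1.28 between the KO pools. The lowest adjusted p of Nr1d1 in any of the other alternatives was 0.219, and under the trended, robust prior it was 0.673. Against WT pool 1 alone the differences were 0.51 for Nr1d1, 0.52 for Per1, 0.39 for Per2 and 0.44 for Bhlhe41.

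Markers of other cell types also differed between the pools. WT pool 9 had the highest keratinocyte mean (9.26, against 8.58 in WT pool 11) and the highest muscle mean (11.75, against 11.53). It was the highest pool in 11 of the 12 keratinocyte markers and 12 of the 14 muscle markers. WT pool 11 was 1.39 above WT pool 9 at Nr1d1, 0.82 at Nr1d2 and 0.49 at Bhlhe41. KO pool 4 was 0.28 above KO pool 2 in its keratinocyte mean and 0.22 above it in its muscle mean. It was higher than KO pool 2 in 11 of the 12 keratinocyte markers and 12 of the 14 muscle markers. It was lower than KO pool 2 in all 5 measured Schwann cell markers and in all 8 endothelial markers, and the part of these marker differences in the clock values was not tested.

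Promoter windows from RefSeq (GRCm38.p6), from 250 bases before to 50 after the annotated start, were searched on both strands for the E-box CACGTG, the D-box TTATGTAA or TTACGTAA, and the Rev-erb and ROR element ANTNGGTCA. The motifs share no bases in the windows that are printed. Of all 32851 windows, 7.15% held the E-box, 1.06% the D-box and 2.24% the Rev-erb and ROR element. Among the clock genes with a window, the E-box was present for Bhlhe41, for Per1 in 1 of its 2 windows and for Tef in both of its 2 windows. Per3 held 2 copies of the D-box, and the windows of Nr1d1, Nr1d2, Dbp and Npas2 held none of these letters. No window of Per2 was used here. The 250 bases before the start are shown for 2 genes that were highest in KO pool 4 and lowest in WT pool 9 (Bhlhe41 and Per1), for Per3, which did not, and for Ciart, the widest-ranging of the other core clock genes, with motifs in capitals and the strand of the gene given 5′ to 3′. They lie at chr6:145865421-145865670 on the minus strand (Bhlhe41), chr11:69098699-69098948 on the plus strand (Per1), chr4:151044666-151044915 on the minus strand (Per3) and chr3:95882229-95882478 on the minus strand (Ciart).
Bhlhe41: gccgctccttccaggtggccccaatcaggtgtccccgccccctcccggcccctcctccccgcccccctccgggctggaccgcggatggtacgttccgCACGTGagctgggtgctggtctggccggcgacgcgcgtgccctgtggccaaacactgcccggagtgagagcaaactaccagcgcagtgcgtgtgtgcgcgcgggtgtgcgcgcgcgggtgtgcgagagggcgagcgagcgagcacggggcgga
Per1: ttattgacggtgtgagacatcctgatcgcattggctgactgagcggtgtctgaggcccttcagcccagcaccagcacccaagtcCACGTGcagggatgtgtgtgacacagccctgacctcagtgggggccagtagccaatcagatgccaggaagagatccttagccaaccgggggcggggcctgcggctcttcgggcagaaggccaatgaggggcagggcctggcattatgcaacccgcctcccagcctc
Per3: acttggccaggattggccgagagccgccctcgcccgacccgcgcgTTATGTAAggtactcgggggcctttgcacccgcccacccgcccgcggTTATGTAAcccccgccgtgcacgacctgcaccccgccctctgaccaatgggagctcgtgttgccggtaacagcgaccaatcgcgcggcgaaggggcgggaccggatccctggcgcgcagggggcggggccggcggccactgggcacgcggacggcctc
Ciart: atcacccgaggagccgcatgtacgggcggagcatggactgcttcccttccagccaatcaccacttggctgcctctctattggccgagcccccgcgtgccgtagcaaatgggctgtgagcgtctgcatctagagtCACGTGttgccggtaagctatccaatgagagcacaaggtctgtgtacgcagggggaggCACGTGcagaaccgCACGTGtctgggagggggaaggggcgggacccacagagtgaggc
The capitals mark the E-box in Bhlhe41 and Per1, the 2 copies of the D-box in Per3 and the 3 copies of the E-box in Ciart. The E-box begins at base -153 of Bhlhe41 and base -166 of Per1, counted back from the start.

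Other core clock genes were taken from a list of 30, of which 15 were measured. Of these 0 passed the test, against 0.676% of all probe sets, and 1 had unadjusted p below 0.05, against 14.3%, with 10 higher and 5 lower means in KO and a median difference of 0.19. Ciart, which encodes CHRONO, a repressor of the positive limb, had the largest difference. It was at 8.16 and 10.16 in KO pools 2 and 4, against 7.98, 7.46 and 8.74 in WT pools 1, 9 and 11. The highest pool was KO pool 4, WT pool 11 was the second and WT pool 9 the lowest, as for Per1, and KO pool 2 again lay inside the WT range. The difference was 1.11 (SE 0.38, adjusted p = 0.170), or 0.11 without KO pool 4. It was 1.44 without WT pool 11 and 2.10 without KO pool 2. The difference of 1.44 passed in its moderated fit (adjusted p = 1.10e-05), although the KO pools lay 2.00 apart. With all 5 pools the adjusted p of Ciart was 0.646 under the trended, robust prior and 0.581 without moderation. Its range over the pools was at the 99.8th percentile of all probe sets.

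**Figure D4:**
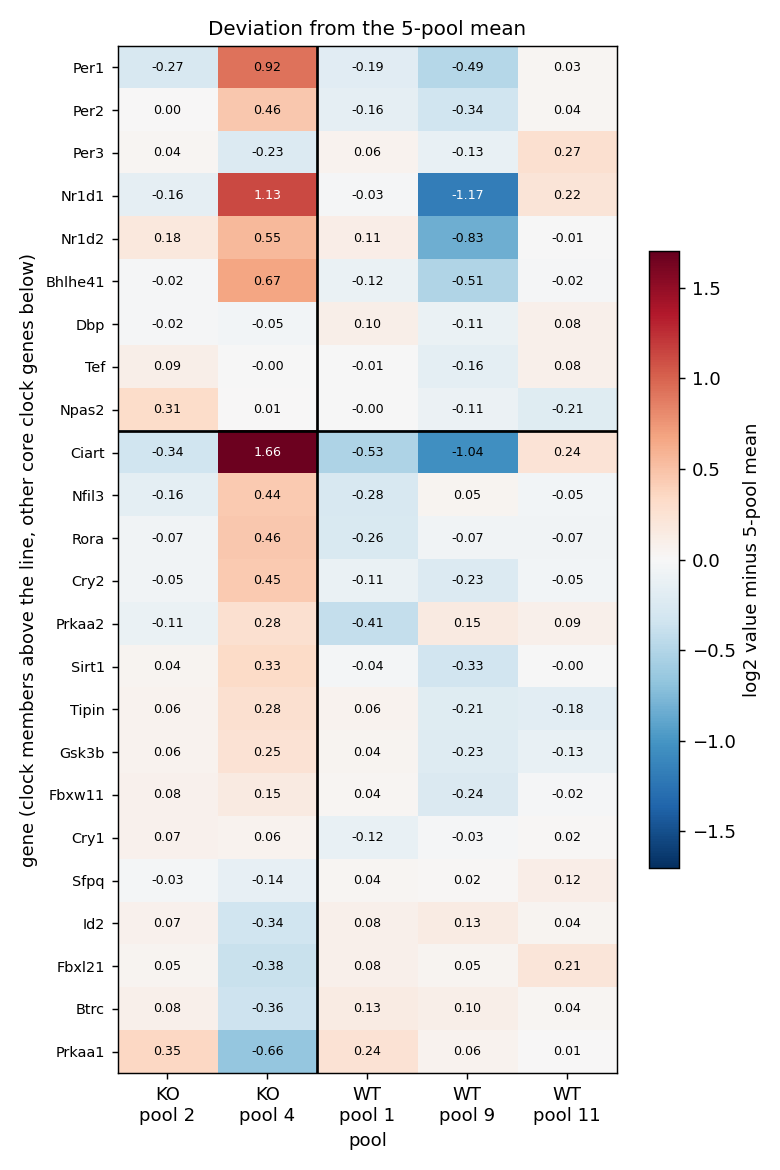
Deviation of each gene's log2 value from its 5-pool mean (colour and printed number), with pools across and genes down, the clock genes above the line and the 15 other core clock genes below it in order of KO pool 4 minus KO pool 2. Ciart, at 1.66 in KO pool 4 and -1.04 in WT pool 9, has the same extremes as Nr1d1, at 1.13 and -1.17.

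Cry2, a cryptochrome that represses the positive limb with the PER proteins, was at 9.82 and 10.32 in KO pools 2 and 4, against 9.76, 9.64 and 9.83 in WT pools 1, 9 and 11 (difference 0.33, SE 0.18, adjusted p = 0.416). Rora, which encodes the nuclear receptor that activates Arntl at the elements where REV-ERB represses it, was at 9.27 and 9.79 in KO pools 2 and 4, against 9.07, 9.27 and 9.27 in WT pools 1, 9 and 11 (difference 0.33, SE 0.18, adjusted p = 0.420). In both genes KO pool 4 was the highest pool and KO pool 2 lay inside the WT range. KO pool 4 was the highest and WT pool 9 the lowest in 6 of the 15 genes of this list, against 12.6% of all probe sets. The 6 were Ciart, Cry2, Tipin, Fbxw11, Gsk3b and Sirt1. Ranges over the pools were 0.48 for Tipin, 0.39 for Fbxw11, 0.47 for Gsk3b and 0.65 for Sirt1, beside a median of 0.44 for all probe sets.

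Output genes of the clock in many tissues were taken from a list of 20, of which 13 were measured. Of these 0 passed, against 0.676% of all probe sets, and 3 were at unadjusted p below 0.05, against 14.3%, with a median difference of 0.05. Wee1, a kinase that holds back entry into mitosis and is driven from E-boxes in mouse liver, was at 10.24 and 10.68 in KO pools 2 and 4, against 9.97, 9.88 and 9.93 in WT pools 1, 9 and 11. Both KO pools were above all WT pools, with a difference of 0.53 (SE 0.18, adjusted p = 0.161). Avpr1a, a vasopressin receptor, was at 9.28 and 9.27 in KO pools 2 and 4, against 9.01, 8.28 and 8.21 in WT pools 1, 9 and 11. Its KO pools were equal to within 0.01 and the difference of 0.77 (SE 0.21, adjusted p = 0.0810) became 0.27 against WT pool 1 alone. Mtss1, which encodes a membrane-bending actin regulator, was at 9.88 and 10.17 in KO pools 2 and 4, against 9.71, 9.38 and 9.56 in WT pools 1, 9 and 11 (difference 0.48, SE 0.18, adjusted p = 0.211). In this list KO pool 4 was the highest pool in 3 of the 13 genes, against 30% of all probe sets. It was above KO pool 2 in 6 of the 13. KO pool 4 was highest with WT pool 9 lowest in 2 of the 13, against 12.6%.

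Glucocorticoids reset peripheral clocks through Per1 among other genes, and 11 of 14 glucocorticoid-responsive genes were measured, Per1 included. Against 0.676% of all probe sets called, 0 of the 11 passed, and 3 had unadjusted p below 0.05, against 14.3%, with a median difference of 0.12. Dusp1, a phosphatase of MAP kinases, was at 10.24 and 10.58 in KO pools 2 and 4, against 10.13, 9.66 and 10.06 in WT pools 1, 9 and 11 (difference 0.46, SE 0.19, adjusted p = 0.253). Zbtb16, a zinc finger repressor, was at 10.80 and 10.91 in KO pools 2 and 4, against 10.12, 10.64 and 10.48 in WT pools 1, 9 and 11 (difference 0.44, SE 0.18, adjusted p = 0.268). KO pool 4 was the highest pool in 6 of the 11 genes, against 30% of all probe sets. It stood above KO pool 2 in 9 of the 11, where the median of KO pool 4 minus KO pool 2 over all probe sets was 0. Per1, described above, is in both counts. Klf9, a Krüppel-like factor chosen after its values were seen, was at 11.51 and 12.23 in KO pools 2 and 4, against 11.36, 11.51 and 11.72 in WT pools 1, 9 and 11. Fkbp5, a chaperone partner of the glucocorticoid receptor that was also chosen after its values were seen, was highest in another pool, with 10.36 and 10.02 in KO pools 2 and 4, against 10.08, 10.38 and 10.18 in WT pools 1, 9 and 11.

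Temperature can also set the phase of a clock, and 5 of 9 temperature-responsive genes were measured. None reached either threshold (0 of 5 at adjusted p, against 0.676% of all probe sets, and 0 of 5 at unadjusted p, against 14.3%), and 4 had the lower mean in KO, with a median of -0.19. Hspb1, a small heat shock protein, had a difference of -0.28 (SE 0.23, adjusted p = 0.599) that turned to 0.35 against WT pool 1 alone. Rbm3, a cold-induced RNA-binding protein, was at -0.21 (SE 0.17), and Hsp90aa1, the inducible HSP90 chaperone, at 0.20 (SE 0.17). KO pool 4 was the highest pool in 1 of the 5 genes, against 30% of all probe sets, and above KO pool 2 in 3 of the 5. It was highest with WT pool 9 lowest in 0 of the 5, against 12.6%.

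The genes closest to Bhlhe41 over the 5 pools, by the root mean square difference of values centred on their own mean, were Traf6 (0.03), Irs2 (0.06), Plekhf2 (0.07) and Trpc1 (0.07) among 9406 genes. Traf6, a ubiquitin ligase of receptor signalling, was at 10.47 and 11.23 in KO pools 2 and 4, against 10.38, 9.95 and 10.47 in WT pools 1, 9 and 11. Like Bhlhe41 it had 1 value shared by KO pool 2 and WT pool 11, where 27.0% of all probe sets had equal values in some pools. Of the clock genes Per2 came nearest to Bhlhe41, at rank 41 (0.13), and Per1 stood at rank 102 (0.16). The genes closest to Nr1d1 were Cxcl10 (0.22), Rnf146 (0.28), Resf1 (0.31) and Per1 (0.34). Cxcl10, a chemokine induced by interferon, was at 8.20 and 9.07 in KO pools 2 and 4, against 8.17, 7.21 and 8.07 in WT pools 1, 9 and 11. With only 5 pools many genes share an order, so these ranks describe likeness in these arrays and nothing more.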

How the data were processed

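The authors deposited log2 values of each probe set on each array, which RMA produced according to their processing notes, per the labels, without stated settings. The table held 10361 probe sets, of which 9411 had 1 symbol, 384 several and 566 none in the platform annotation of 2016. All 9 clock genes had 1 probe set each and an unchanged symbol in RefSeq genes of GRCm38.p6. In every probe set the fourth-ranked value exceeded the lowest by at least 0.175, so genes with little spread are not analysed here.

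KO and WT pools were compared on the unaltered deposited values in limma 3.58.1 under R 4.3.3 (lmFit and eBayes, default prior, 3 residual and 17.4 prior degrees of freedom, two-sided, Benjamini-Hochberg over all probe sets, call at adjusted p below 0.05). The fit was tested on simulated data. The number of arrays limits the precision, and part of the spread among these pools may be technical. The moderated SE and p-value of a gene draw mostly on the spread of all probe sets, and less on its own. For a gene with a wide spread the SE is therefore smaller than its own pools would give. Nr1d1, with a KO SD of 0.91, a WT SD of 0.74 and an SE of 0.32, is such a gene. The clock genes and lists were chosen with earlier results of these data known. Every clock gene was named, then the 3 largest absolute differences of each list and the 4 genes nearest in profile to Bhlhe41 and to the widest-ranging clock gene. A symbol with several probe sets was represented by the one with the highest mean. The 11 alternatives covered scaling, the prior, a filter on low values and pools left out.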

Additional observations from a re-analysis of the deposited data

How the results depend on the processing

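No paired analysis was possible because the KO and WT pools share no number. The count of clock genes called was 0, with 1 under the trended, robust prior (Nr1d2) and from 0 to 1 with single pools left out (Nr1d1 without WT pool 11). In the other clock and clock-linked lists the count was 0, with 1 under the trended, robust prior (Avpr1a) and from 0 to 1 with pools left out (Ciart without WT pool 11). Over all probe sets the count of 70 became 1 after median centring, 1 after quantile normalisation, 574 with the trended, robust prior, 0 without moderation, 0 against WT pool 1 alone and from 0 to 105 with single pools left out. The limb contrast between genotypes, -0.08, ranged from -0.45 to 0.30 with single pools left out and kept its sign in the other 4 alternatives. Of 98 values of the 9 clock genes under the alternatives, 3 changed sign (Per1, which ran from -0.053 without KO pool 4 to 1.14 without KO pool 2, and Dbp at 0.0030 after median centring and 0.0028 after quantile normalisation). Hspb1 turned to 0.35 against WT pool 1 alone. Bhlhe41 lay below the filter at the 25th percentile and has no value there. The Ebf2 difference, -2.37 (adjusted p = 4.97e-07), kept its direction in all 11 alternatives and did not pass in 5 of them, which include each fit without 1 KO pool. The causes were not tested. Precision is limited by having 2 arrays against 3.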
